A study of Mus musculus with 12 samples.

Results

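The MHC class II presentation genes are the 9 mouse genes Ciita, Cd74, H2-Aa, H2-Ab1, H2-Eb1, H2-DMa, H2-DMb1, H2-Oa and H2-Ob. They were taken by gene symbol from count tables that list 33924 genes in one set of libraries and 22609 in the other, and all 9 were found and passed the filter on low counts in both sets. The genes were described across 7 groups of mouse lung, in 12 RNA-seq libraries that form 2 sets of 6. RNA came from whole lung, 14 to 16 h after treatment, of mice aged 6 to 8 weeks on the B6 background. Mice were treated with extract of Dermatophagoides farinae, a house dust mite, written D.f., or with phosphate-buffered saline, PBS.

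In the RNase III set all mice were wild type, and the groups received D.f. extract plus RNase III (n = 2), D.f. extract (n = 2) or PBS (n = 2). RNase III digests double-stranded RNA. The knockout set held TLR3MAVS double knockout mice with D.f. (n = 2) or PBS (n = 1) and wild-type mice with D.f. (n = 2) or PBS (n = 1). Tlr3 senses double-stranded RNA in endosomes, and Mavs relays the signal of RNA sensors in the cytosol. The question behind the design is how far the response of the lung to the extract depends on double-stranded RNA and on its sensing. The labels say neither in which cells the double knockout lacks its genes nor whether replicate libraries came from separate animals. The p-values thus rest on the spread among libraries, and that spread may be technical.

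MHC class II molecules carry peptides from endosomes to the surface of dendritic cells, B cells and macrophages, where CD4 T cells read them. Ciita is the transactivator that class II genes need, and in many cell types interferon-gamma induces it. The α and β chains H2-Aa, H2-Ab1 and H2-Eb1 assemble on the invariant chain Cd74, the DM heterodimer (H2-DMa, H2-DMb1) then exchanges the remnant of Cd74 for peptide, and the DO heterodimer (H2-Oa, H2-Ob), best known from B cells, inhibits DM. In lung, alveolar type 2 cells also make class II molecules without an inflammatory stimulus.

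Class II promoters are known for an X box, bound by RFX, and a Y box, bound by NF-Y, at a fixed distance. Windows from RefSeq (GRCm38.p6 table, 250 bases before to 50 bases after each gene start) were searched on both strands for GNAAC, a short core of the X box, followed after 20 to 35 bases by the Y box ATTGG. The spacing was set with class II promoters in view. The motifs do not overlap each other by construction. Cd74 was left out of this search of the members. Windows were found for 6 of the others, and none for Ciita and H2-Ab1. Of those 6 genes, 5 held the pair, against 2.67% of all 32851 windows. That sets a count of genes beside a share of windows. The Y box alone was in 37.4% of all windows. Of the windows with the pair, 4 are shown because they belong to an α chain, a β chain and both DO chains, which behaved differently in the libraries. GNAAC and ATTGG are in capitals, each sequence runs 5′ to 3′ on the strand of its gene, and positions are in NCBIM37, the Ensembl name of mm9.
H2-Aa, minus strand, chr17:34424804-34424864: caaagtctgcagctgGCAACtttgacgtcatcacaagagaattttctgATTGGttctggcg
H2-Eb1, plus strand, chr17:34442706-34442765: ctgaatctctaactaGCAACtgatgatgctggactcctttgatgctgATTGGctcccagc
H2-Oa, plus strand, chr17:34229233-34229293: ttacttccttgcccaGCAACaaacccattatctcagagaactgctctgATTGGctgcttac
H2-Ob, plus strand, chr17:34375748-34375805: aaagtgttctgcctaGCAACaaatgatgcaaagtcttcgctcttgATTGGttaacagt
The core and the Y box were 28 bases apart in H2-Aa and H2-Oa, 27 in H2-Eb1 and 25 in H2-Ob. The H2-DMb1 window held the pair at 28 bases, and the H2-DMa windows held no such pair. A match is a description of the letters and not of binding.

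Each library of the RNase III set had 17754518 to 25714074 reads assigned to genes, and each of the knockout set 15687699 to 20945618. Levels are CPM, the usual scaling of read counts to library size, computed within each set. A count of 0 allows up to 3 reads, or 0.119 to 0.189 CPM, which covers counting error only. The 9 genes together took 0.131% to 0.212% of assigned reads. In the double knockout, Mavs had 2.66 and 2.35 CPM with D.f. and 3.09 CPM with PBS, against 34.3 and 32.2 CPM with D.f. and 36.4 CPM with PBS in wild type. Tlr3 had 14.8, 10.04 and 10.5 CPM in the same knockout libraries, against 156, 113 and 42.4 CPM in wild type. Markers of alveolar type 2 cells, the surfactant-making cells of lung, summed to 8605 to 16596 CPM over the 12 libraries.

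Replicates were not equally alike. Counts of the knockout D.f. libraries, replicates 5 and 6, differed by a chi-square of 35.6 per degree of freedom, against 9.78 between the wild-type D.f. libraries of the same set. In the RNase III set the values were 8.32 for D.f. with RNase III, 30.5 for D.f. and 50.7 for PBS, the largest of the 5 pairs. The measure uses raw counts of genes above a minimum of reads, so depth and abundant genes weigh on it. For Ciita it was the knockout D.f. pair that differed most. Ciita had 174 CPM in replicate 5 and 46.1 CPM in replicate 6. Where leaving out either library changed a call among the 9 genes in the knockout set, the value without it is given. Markers of cardiac muscle also varied. Their 6 genes, with 1 gene at 0 in each of 3 libraries of the knockout set, summed to 183 and 161 CPM with D.f. and RNase III, 443 and 918 CPM with D.f. and 117 and 1161 CPM with PBS. In double knockout mice the sum was 80.2 and 150 CPM with D.f. and 92.2 CPM with PBS, against 369 and 558 CPM with D.f. and 673 CPM with PBS in wild type. It was thus lower with RNase III than with D.f. alone and lower in the knockout than in wild type, and its part in the class II values was not tested.

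In the RNase III set Ciita had the largest log2 fold change of the 9 genes with the extract. It lies on chromosome 16, chr16:10480237-10527657, on the plus strand, and the annotation holds 2 gene models of that symbol, which overlap by 2455 bases. With D.f. it had 87.9 and 121 CPM, against 50.9 and 49.1 CPM with PBS. Both D.f. libraries lay above both PBS libraries. The means were 104 ± 23.2 CPM with D.f. and 50.02 ± 1.27 CPM with PBS (SD, n = 2 each), a log2 fold change of 1.06 ± 0.16 (SE, 95% interval 0.68 to 1.44). This passed the quasi-likelihood test of edgeR, adjusted by Benjamini-Hochberg over all 17165 genes tested (adjusted p = 0.00807). Ciita was the only one of the 9 genes called higher, and 6.51% of all genes tested were called higher in this comparison. In a single fit over all 12 libraries, which takes in the spread of the knockout libraries, its log2 fold change was again 1.06 and the call was lost (adjusted p = 0.156).

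With RNase III added to the extract, Ciita stood at the PBS level. It had 49.9 CPM in both libraries with D.f. and RNase III. Both lay below both D.f. libraries and between the PBS values of 50.9 and 49.1 CPM. Against D.f. alone Ciita fell by 1.06 on the log2 scale (SE 0.16, adjusted p = 0.0105 by edgeR), and it was the only one of the 9 genes called lower, where 4.85% of all genes were called lower. This call was lost without D.f. replicate 4 (log2 fold change -0.82, adjusted p = 0.053), without D.f. plus RNase III replicate 5 (adjusted p = 0.139) or replicate 6 (adjusted p = 0.107), and in the fit over all 12 libraries (adjusted p = 0.181). Against PBS the log2 fold change was -0.00, with a 95% interval of -0.39 to 0.38. The comparisons of D.f. with PBS and of D.f. plus RNase III with D.f. share the D.f. libraries.

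**Figure D1:**
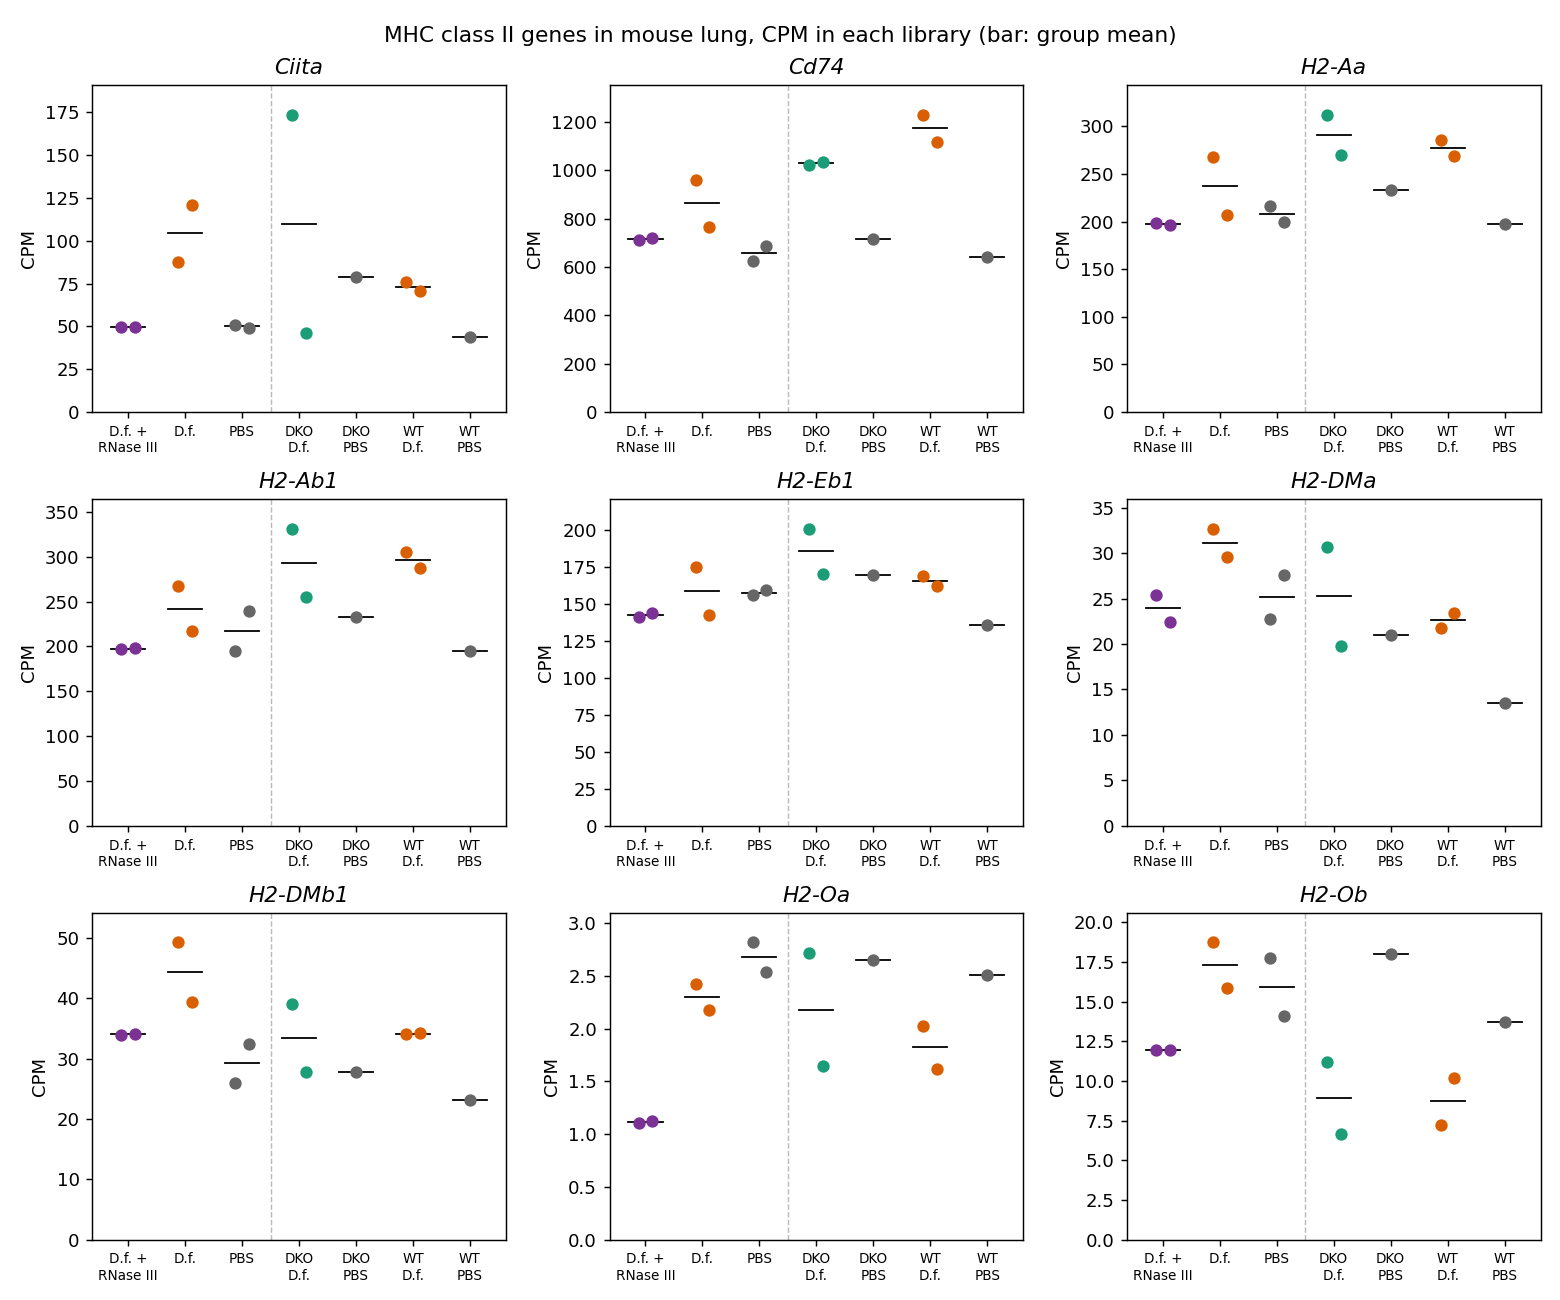
CPM of the 9 class II genes in each library (points) and the mean of each group (bars), with the RNase III set left of the dashed line and the knockout set right of it; DKO is the TLR3MAVS double knockout and WT is wild type. Ciita stands at 87.9 and 121 CPM with D.f. and at 49.9 CPM in both libraries with D.f. and RNase III, and the knockout D.f. libraries lie at 174 and 46.1 CPM.

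Wild-type mice of the knockout set had Ciita at 76.1 and 70.4 CPM with D.f. and 43.8 CPM with PBS. Both D.f. libraries were higher than the PBS library, at a log2 fold change of 0.74 ± 0.72 (adjusted p = 0.647 by edgeR), where the wide error comes with the knockout libraries in the shared estimate of spread. Without knockout D.f. replicate 5 the same contrast was 0.74 ± 0.11 (adjusted p = 5.6e-06), and without replicate 6 it was 0.72 ± 0.10 (adjusted p = 6e-05). These fits rest on a single replicated group.

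In double knockout mice Ciita had 174 and 46.1 CPM with D.f., against 78.7 CPM with PBS. One D.f. library lay above the PBS library and the other below it. The log2 fold change was 0.48 ± 0.71 (adjusted p = 0.91), 1.14 without replicate 6 (adjusted p = 9.7e-06) and -0.77 without replicate 5 (adjusted p = 3.7e-05), all by edgeR. Set against wild-type D.f., the knockout D.f. libraries lay on either side of 76.1 and 70.4 CPM. That log2 fold change was 0.58 ± 0.57 (adjusted p = 0.66), 1.24 without replicate 6 (adjusted p = 2.7e-08) and -0.67 without replicate 5 (adjusted p = 2.4e-05). The sign of the knockout effect on Ciita was thus set by which of 2 libraries was used.

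The genes whose pattern was most like that of Ciita, by Pearson correlation over 12 libraries on log2 CPM centred on each set, were Wars, the tryptophanyl-tRNA synthetase (r = 0.921), the guanylate-binding protein genes Gbp4 (0.916) and Gbp8 (0.908), Stx2 (0.885) and Nup214 (0.883), among 12460 genes compared. The points share libraries and depth, and the pattern includes the discordant pair. Gbp4 had 605 and 40.0 CPM in knockout D.f. replicates 5 and 6, and Wars had 638 and 167 CPM. In wild-type D.f. libraries of that set Gbp4 had 335 and 269 CPM and Wars had 388 and 302 CPM. Replicate 5 was thus above wild type, and replicate 6 below it, for both genes as for Ciita.

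Nlrc5, the relative of Ciita that serves MHC class I genes, differed from Ciita in the knockout libraries but correlated with it at 0.808 over the 12 libraries. With D.f. it had 307 and 605 CPM, against 42.9 and 38.2 CPM with PBS, a log2 fold change of 3.49 ± 0.31 (adjusted p = 0.00109 by edgeR). In knockout D.f. replicates 5 and 6 it had 221 and 40.2 CPM, against 348 and 257 CPM in wild-type D.f. libraries. Both knockout values lay below both wild-type values, whereas Ciita in replicate 5 lay above them. The ratio of Nlrc5 to Ciita in CPM was 3.50 and 5.02 with D.f. and 0.843 and 0.778 with PBS in the RNase III set. It was 1.27 and 0.871 with D.f. in the knockout, against 4.57 and 3.64 with D.f. in wild type.

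Cd74, the invariant chain, which guides new class II molecules to endosomes, was the most abundant of the 9 genes in every library. It lies on chromosome 18, at 60963502 to 60972300 on the plus strand. In the RNase III set it had 958 and 767 CPM with D.f. and 626 and 687 CPM with PBS. The D.f. libraries lay above the PBS libraries, but the difference did not pass the test (log2 fold change 0.39 ± 0.16, adjusted p = 0.168 by edgeR). After D.f. plus RNase III it had 709.7 and 719.6 CPM, below both D.f. libraries and above both PBS libraries (log2 fold change -0.27 ± 0.16 against D.f., adjusted p = 0.365).

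Wild-type mice of the knockout set had Cd74 at 1229 and 1116 CPM with D.f., against 641 CPM with PBS. This log2 fold change, 0.87 ± 0.12, was the only call among the 9 genes (adjusted p = 0.0442 by edgeR), where 1.38% of 15294 genes tested were called higher. It was lost without wild-type D.f. replicate 3 (adjusted p = 0.521) or replicate 4 (adjusted p = 0.281). In double knockout mice Cd74 had 1023 and 1032 CPM with D.f., against 716 CPM with PBS. Both D.f. libraries were again above the PBS library, at a log2 fold change of 0.52 ± 0.12 (adjusted p = 0.819 by edgeR). It passed the test without replicate 5 (adjusted p = 0.00709) and not without replicate 6 (adjusted p = 0.0611). The difference between the genotypes' responses was -0.35 ± 0.17 (adjusted p = 0.613 by edgeR), so that the response of Cd74 was not shown to differ between them.

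None of the peptide-binding chains passed the test in the RNase III set. H2-Aa (chr17:34406276-34424772, minus strand) and H2-Ab1 (chr17:34400154-34406363, plus strand) form the I-A molecule, and their gene models overlap by 88 bases. H2-Aa had 268 and 207 CPM with D.f., against 217 and 199.7 CPM with PBS. H2-Ab1 had 267 and 217 CPM with D.f., against 195 and 239 CPM with PBS. For both genes the groups overlapped, with log2 fold changes of 0.19 ± 0.15 and 0.16 ± 0.16 (adjusted p = 0.496 and 0.589 by edgeR). After D.f. plus RNase III, H2-Aa had 198 and 196 CPM and H2-Ab1 had 197 and 198 CPM, below both D.f. libraries for each gene. Neither fall passed the test (adjusted p = 0.365 and 0.332).

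H2-Eb1, the β chain of the I-E molecule (chr17:34442828-34453144, plus strand), was the flattest of the abundant genes. It had 175 and 142 CPM with D.f. and 156 and 159 CPM with PBS, with a log2 fold change of 0.01 (95% interval -0.31 to 0.32). After D.f. plus RNase III it had 141 and 144 CPM. The D.f. values lay on both sides of the PBS values. B6 mice are known to lack a working I-E α chain, and its gene, listed as H2-Ea-ps, had 0 reads in all 12 libraries.

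All 3 chains of the knockout set were higher with D.f. than with PBS in wild type. H2-Aa had 286 and 269 CPM with D.f., against 198 CPM with PBS, H2-Ab1 had 306 and 288 CPM, against 195 CPM, and H2-Eb1 had 169 and 162 CPM, against 136 CPM. The log2 fold changes of 0.49 ± 0.14, 0.61 ± 0.18 and 0.28 ± 0.14 did not pass the test (adjusted p = 0.173, 0.194 and 0.373 by edgeR). All 3 passed it without knockout D.f. replicate 5 (adjusted p = 0.00102, 7.9e-05 and 0.0399), and without replicate 6 H2-Aa and H2-Ab1 did (adjusted p = 0.00462 and 0.00072) while H2-Eb1 did not (adjusted p = 0.0798). In double knockout mice H2-Aa had 312 and 270.2 CPM with D.f., against 233 CPM with PBS, H2-Ab1 had 331 and 255 CPM, against 233 CPM, and H2-Eb1 had 201 and 170.3 CPM, against 169.5 CPM. Every knockout D.f. library was above the PBS library, and replicate 5 was the higher of the pair for each chain. Of these contrasts with PBS, that of H2-Ab1 passed without replicate 6 (log2 fold change 0.51, adjusted p = 0.0367 by edgeR) and not without replicate 5 (0.13, adjusted p = 0.559). Between knockout and wild type with D.f. the 3 log2 fold changes were 0.07, -0.02 and 0.16, with 95% intervals of -0.20 to 0.34, -0.38 to 0.34 and -0.12 to 0.45.

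The DM genes edit the peptides of class II molecules. H2-DMb1 (chr17:34290017-34297168, plus strand) had 49.3 and 39.4 CPM with D.f., against 26.0 and 32.4 CPM with PBS. The groups did not overlap, and the log2 fold change of 0.60 ± 0.16 was just outside the threshold (adjusted p = 0.0609 by edgeR). It was inside without the filter on low counts (adjusted p = 0.0438), with DESeq2 (adjusted p = 0.029) and without PBS replicate 2 (adjusted p = 0.0184). With D.f. and RNase III it had 33.97 and 34.1 CPM, below both D.f. libraries (log2 fold change -0.38 ± 0.16 against D.f., adjusted p = 0.228). H2-DMb2 is a near copy beside it, and reads with more than 1 alignment were set aside, so both values are uncertain.

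H2-DMa (chr17:34272127-34276046, plus strand) had 32.7 and 29.6 CPM with D.f., against 22.7 and 27.6 CPM with PBS. Its D.f. libraries also lay above its PBS libraries, at 0.31 ± 0.15 (adjusted p = 0.256 by edgeR). With D.f. and RNase III it had 25.4 and 22.5 CPM. In the knockout set wild-type mice had 21.8 and 23.4 CPM of H2-DMa with D.f., against 13.5 CPM with PBS, and 34.1 and 34.3 CPM of H2-DMb1, against 23.2 CPM. The changes of 0.74 ± 0.28 and 0.56 ± 0.22 did not pass the test (adjusted p = 0.279 and 0.289), and passed it without knockout D.f. replicate 5 (adjusted p = 0.00091 and 0.00161) or replicate 6 (adjusted p = 0.00234 and 0.005). In double knockout mice H2-DMa had 30.7 and 19.8 CPM with D.f., against 21.0 CPM with PBS, and H2-DMb1 had 39.0 and 27.7 CPM, against 27.9 CPM. For both genes replicate 5 was above the PBS library and replicate 6 slightly below it. Between knockout and wild type with D.f., H2-DMa passed the test without replicate 6 (log2 fold change 0.44, adjusted p = 0.0316 by edgeR), and the difference between the genotypes' responses passed it without replicate 5 (-0.82, adjusted p = 0.0202). With both libraries these values were 0.16 and -0.47 (adjusted p = 0.769 and 0.82).

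The DO genes restrain DM, and with all libraries neither passed the test in any comparison. H2-Oa (chr17:34229285-34232179, plus strand) was the least abundant member, at 20 to 61 reads per library. It had 1.101 and 1.123 CPM with D.f. and RNase III, against 2.42 and 2.18 CPM with D.f. and 2.82 and 2.53 CPM with PBS. The libraries with RNase III were the lowest of the 6. Against PBS the log2 fold change was -1.26 ± 0.29 (adjusted p = 0.897 by edgeR), in a comparison where edgeR called 1 gene of 17165, 0.00583%, in either direction. Against D.f. it was -1.04 ± 0.29 (adjusted p = 0.082), and it passed without PBS replicate 1 (adjusted p = 0.0447) or replicate 2 (adjusted p = 0.0457), libraries that enter only through the spread and the filter.

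H2-Ob (chr17:34375848-34390850, plus strand) overlaps the gene model Gm20506 by 1208 bases, and reads there cannot be told apart without strand. It had 11.95 and 11.98 CPM with D.f. and RNase III, against 18.7 and 15.8 CPM with D.f. and 17.7 and 14.1 CPM with PBS. The libraries with RNase III were again the lowest, at -0.53 ± 0.18 against D.f. (adjusted p = 0.13 by edgeR), which passed without PBS replicate 1 (adjusted p = 0.0459) or replicate 2 (adjusted p = 0.0433). In the knockout set wild-type mice had 7.25 and 10.2 CPM with D.f., against 13.7 CPM with PBS. Double knockout mice had 11.2 and 6.65 CPM with D.f., against 18.03 CPM with PBS. In both genotypes both D.f. libraries lay below the PBS library, at log2 fold changes of -1.02 ± 0.35 in the knockout (adjusted p = 0.819) and -0.66 ± 0.36 in wild type (adjusted p = 0.416). Without knockout D.f. replicate 5 both passed, at -1.44 in the knockout (adjusted p = 6.7e-05 by edgeR) and -0.66 in wild type (adjusted p = 0.0173). Without replicate 6 the knockout contrast did not pass (-0.68, adjusted p = 0.196) and that of wild type did (adjusted p = 0.0223). H2-Oa had 2.71 and 1.65 CPM with D.f. in the knockout, against 2.65 CPM with PBS, and 2.02 and 1.62 CPM with D.f. in wild type, against 2.504 CPM with PBS.

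Markers of B cells, the cells best known for DO, moved beside the DO genes in part. All 12 markers of the list were detected in every library. They summed to 98.2 and 99.0 CPM with D.f. and RNase III, against 199.8 and 165 CPM with D.f. and 150.5 and 124 CPM with PBS. Against D.f., 6 of the 12 were called lower, with a median log2 fold change of -0.92, where 4.85% of all genes were called lower. The sum in the knockout set was 93.8 and 56.8 CPM with D.f., against 138 CPM with PBS, in double knockout mice, and 82.8 and 96.1 CPM with D.f., against 78.5 CPM with PBS, in wild type. In wild type the markers were thus higher and H2-Ob lower in both D.f. libraries. In bulk lung, fewer cells of a type and less RNA per cell cannot be told apart, and the part of B cells in these values was not tested.

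**Figure D2:**
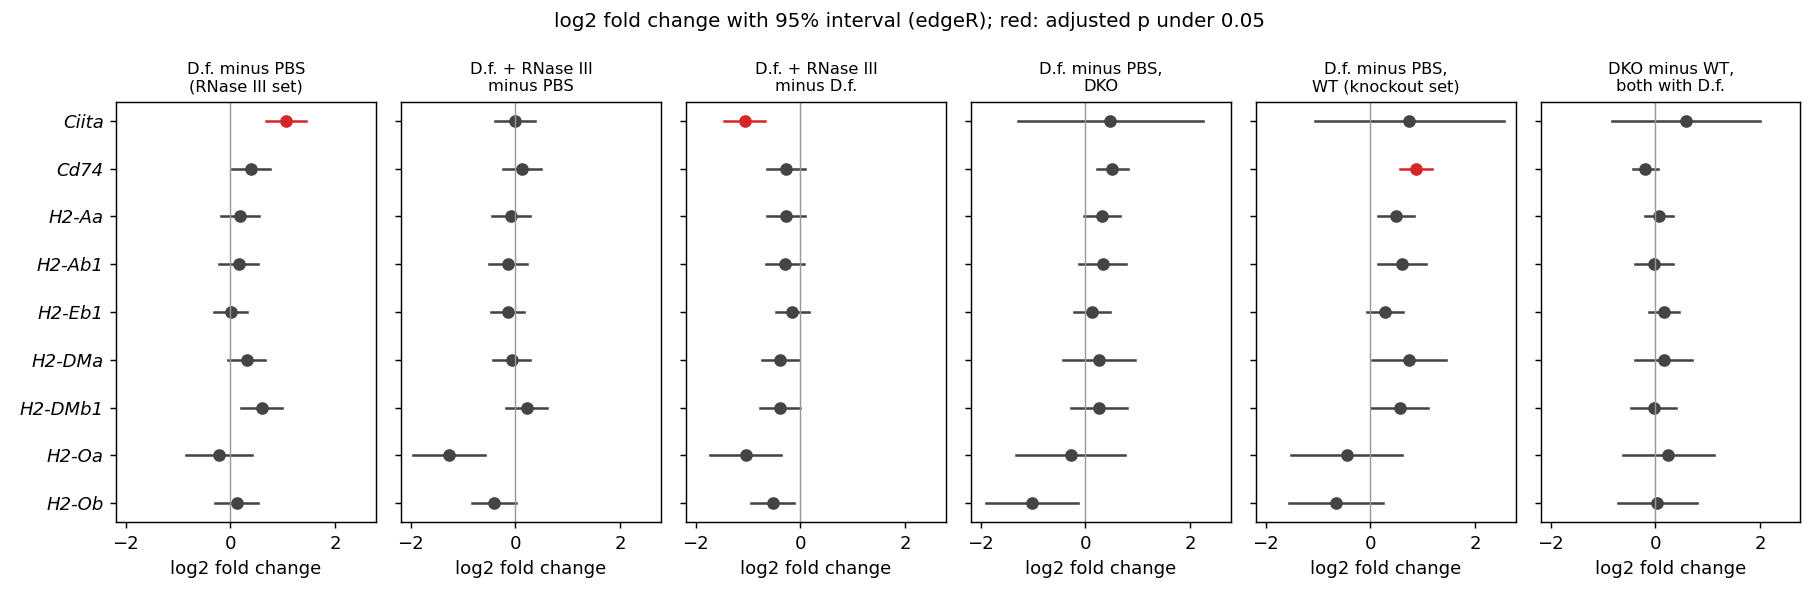
Log2 fold change of each class II gene in 6 comparisons, the first-named group minus the second, with its 95% interval from edgeR; red marks an adjusted p under 0.05. Ciita is called at 1.06 with D.f. and at -1.06 with RNase III, Cd74 is called at 0.87 in wild type of the knockout set, and the intervals of Ciita in the knockout set span 0.

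As a group the 9 genes had median log2 fold changes from -0.38 to 0.56 in the comparisons that follow. In the RNase III set 8 of 9 log2 fold changes of D.f. against PBS were positive, with a median of 0.19, against -0.01 over all genes tested. Ciita, Cd74 and H2-DMb1 had an unadjusted p under 0.05 by edgeR, as did 4397 of the 17165 genes tested. With RNase III against D.f. all 9 were negative, with a median of -0.38, against -0.00 over all genes. There Ciita, H2-DMa, H2-Oa and H2-Ob had an unadjusted p under 0.05 by edgeR, as did 3816 of the 17165 genes. With D.f. and RNase III against PBS the median was -0.08, and edgeR and DESeq2 each called 0 of 9. H2-Oa alone of the 9 had an unadjusted p under 0.05 by edgeR, beside 835 of the 17165 genes. In the knockout set the median with D.f. against PBS was 0.26 in double knockout mice and 0.56 in wild type, each against 0.01 over all genes. In that wild type Cd74, H2-Aa, H2-Ab1, H2-DMa and H2-DMb1 had an unadjusted p under 0.05 by edgeR, as did 2615 of 15294 genes.

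In double knockout mice edgeR called 0 of the 9 genes with D.f. against PBS, as it did of all 15294 genes tested (0% called). Cd74 and H2-Ob had an unadjusted p under 0.05 by edgeR, as did 847 of the 15294 genes, and DESeq2 called 0 of the 9. Knockout against wild type with D.f. gave 0 calls among the 9 by edgeR and by DESeq2, where edgeR called 0.517% of genes higher and 2.01% lower. Of the 9, 0 had an unadjusted p under 0.05 by edgeR, beside 2784 of the 15294 genes. The test of the difference between the genotypes' responses gave 0 calls among the 9 by both tools, where edgeR called 0.00654% of genes. By edgeR, 0 of the 9 had an unadjusted p under 0.05, beside 1481 of the 15294 genes. These 3 contrasts share the knockout D.f. libraries. Without knockout D.f. replicate 5, 3 of the 9 were called with D.f. against PBS in the knockout (among 2092 genes in all), 8 in wild type (3150 genes) and 1 between the genotypes with D.f. (3048 genes). Without replicate 6 these counts were 2 (266 genes), 7 (2977 genes) and 2 (2479 genes).

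Over the 7 wild-type libraries of both sets, in a model that also held the set, 3 of the 9 genes were called higher with D.f., where 8.53% of 15481 genes were. They were Ciita at a log2 fold change of 0.91 ± 0.13 (adjusted p = 0.0034 by edgeR), H2-DMb1 at 0.56 ± 0.12 (adjusted p = 0.02) and Cd74 at 0.56 ± 0.15 (adjusted p = 0.0437). H2-DMa followed at 0.45 ± 0.13 (adjusted p = 0.0629), and was called with DESeq2 (adjusted p = 0.0294) and without PBS replicate 2 of the RNase III set (adjusted p = 0.0213). The direction was the same within each set for these 4 genes. In the order given, the values within the RNase III set were 1.06, 0.60, 0.39 and 0.31, and those within the knockout set 0.74, 0.56, 0.87 and 0.74. The call for Cd74 was lost without any of 5 of the 7 libraries (adjusted p = 0.0652 to 0.202) and that for H2-DMb1 without any of 3 (adjusted p = 0.0609 to 0.0824). A test of the difference between the sets, added after the data were seen, called 0 of the 9 genes and 0% of all genes. Of the 9, 0 had an unadjusted p under 0.05 by edgeR, beside 856 of the 15481 genes.

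**Figure D3:**
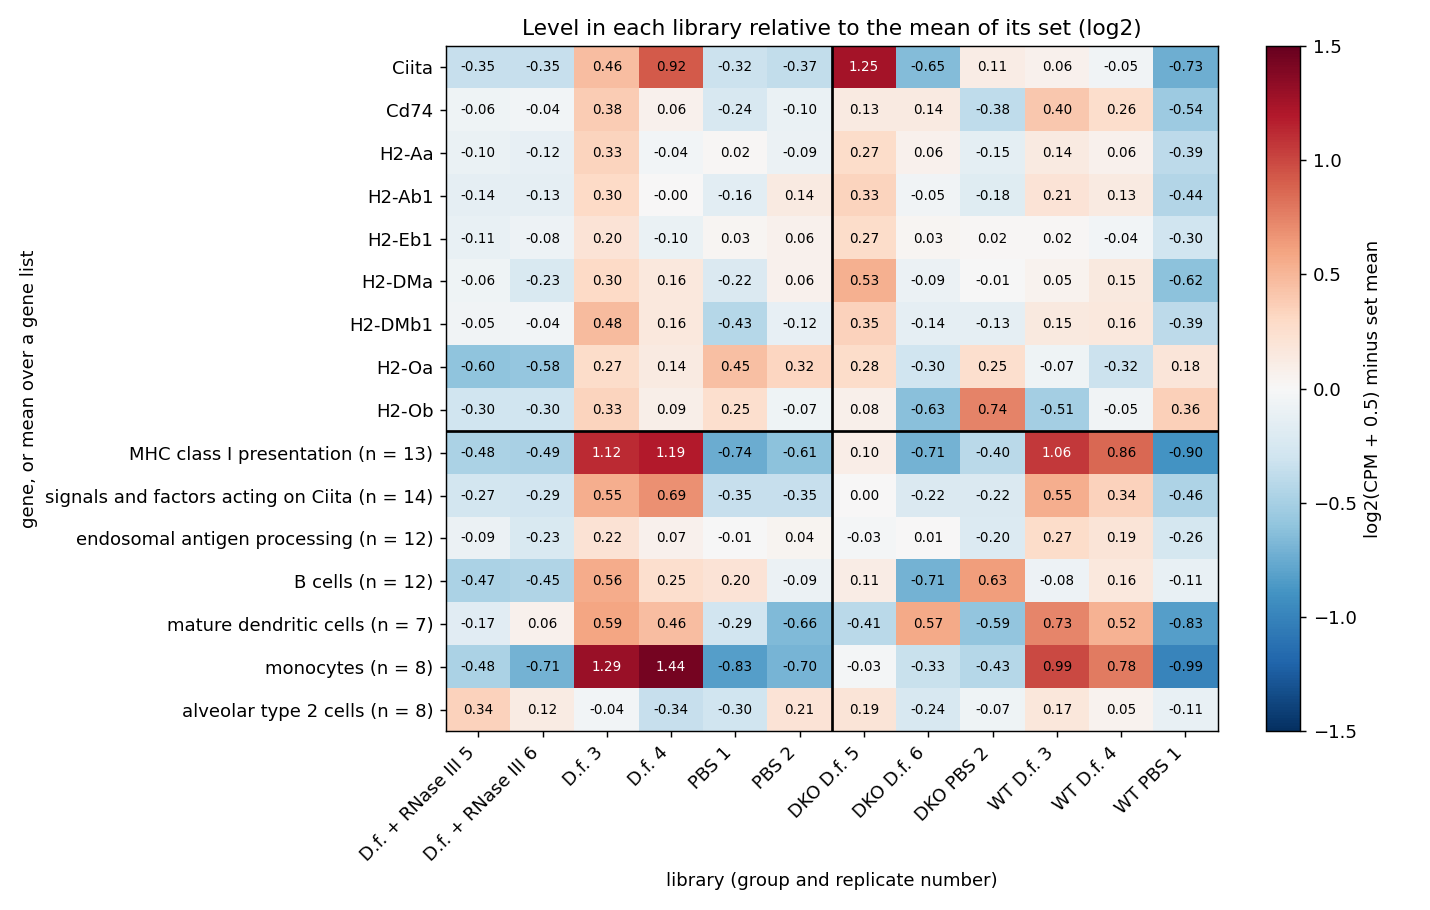
Level of each class II gene (upper block) and mean level of other gene lists (lower block) in each library, as log2(CPM + 0.5) minus the mean of the set; n is the number of genes in a list. Ciita runs between 0.92 in D.f. replicate 4 and -0.37 in PBS replicate 2 of the RNase III set, H2-Eb1 stays between -0.11 and 0.20 there, and class I genes reach 1.12 and 1.19 with D.f.

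The genes of MHC class I presentation, which display peptides from the cytosol, were the clearest contrast. All 13 of the list were called higher with D.f. in the RNase III set, with a median log2 fold change of 1.79, and all 13 were called lower with RNase III against D.f., with a median of -1.48. Over all genes these shares were 6.51% and 4.85%. Examples with D.f. are the immunoproteasome subunits Psmb8 (2.26 ± 0.14, adjusted p = 0.00032) and Psmb9 (1.97 ± 0.13, adjusted p = 0.0004) and the peptide transporter subunit Tap2 (1.79 ± 0.13, adjusted p = 0.00046), all by edgeR. Leaving out single libraries gave 11 to 13 genes called higher with D.f. and 5 to 13 called lower with RNase III, lowest without D.f. plus RNase III replicate 5. With D.f. in knockout against wild type 7 of 13 were called lower, with a median of -1.11, where 2.01% of all genes were called lower. How many class I genes were called there depended strongly on which single library was left out.

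Of 14 signals and factors that act on Ciita, 8 were called higher with D.f. (median 0.72), where 6.51% of all genes were, and 8 were called lower with RNase III against D.f. (median -0.64), where 4.85% of all genes were. The other 6 were not called with D.f., among them the interferon-gamma receptor subunit Ifngr1 (-0.01 ± 0.13) and the factors Irf4 (0.11 ± 0.18) and Prdm1 (0.04 ± 0.13). Irf1, a factor that acts at the Ciita promoter used by interferon-gamma, changed by 1.44 ± 0.18 with D.f. and by -1.48 ± 0.18 with RNase III against D.f. (adjusted p = 0.00362 and 0.00451 by edgeR). Socs1, an inhibitor of that signal, rose by 2.82 ± 0.35 with D.f. (adjusted p = 0.00323). Without D.f. plus RNase III replicate 5, 1 of the 14 was called lower with RNase III, and without D.f. replicate 4, 5 of the 14 were called higher with D.f.

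In the knockout set 2 of these 14 genes, Spi1 and Socs1, were called higher with D.f. in wild type, and 0 in the knockout. Over all genes tested these shares were 1.38% and 0%. Spi1, the myeloid factor PU.1, changed by 1.37 ± 0.18 (adjusted p = 0.0381 by edgeR). With D.f., Socs1 and Irf8, a factor of dendritic cells and macrophages, were lower in the knockout than in wild type (-1.89 ± 0.23, adjusted p = 0.0258, and -1.02 ± 0.16, adjusted p = 0.0478, by edgeR). Of all genes tested, 2.01% were called lower in that comparison. Without wild-type D.f. replicate 3 none of the 14 was called higher in wild type or lower in the knockout.

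Of 7 factors that bind class II promoters, among them RFX and NF-Y subunits, 1 was called higher with D.f. in the RNase III set, where 6.51% of all genes were. Rfx5, the DNA-binding subunit of RFX, was called higher with D.f. (0.72 ± 0.16, adjusted p = 0.0309 by edgeR), and the list's median was 0.03. The call for Rfx5 was lost without D.f. replicate 3. With RNase III against D.f. none of the 7 was called, and Rfx5 stood at -0.66 ± 0.16 (adjusted p = 0.0526).

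Among 12 genes of endosomal antigen processing 5 were called higher and 1 lower with D.f., where 6.51% of all genes were called higher and 4.5% lower. Sppl2a, the protease that clears the last fragment of Cd74, changed by 1.22 ± 0.14 (adjusted p = 0.00242 by edgeR), and Ctss, the protease that trims Cd74 in antigen-presenting cells, by 1.16 ± 0.14 (adjusted p = 0.00285). Lgmn, an endosomal asparagine-specific protease, changed by 0.66 ± 0.11 (adjusted p = 0.0115) and the cathepsin Ctsb by 0.82 ± 0.15 (adjusted p = 0.0136), while the cathepsin Ctsf fell by 1.28 on the log2 scale (adjusted p = 0.0255). Those 4 rising proteases were all called lower with RNase III against D.f., Ctss by -1.23 ± 0.14 (adjusted p = 0.00317) and Sppl2a by -0.95 ± 0.14 (adjusted p = 0.00799). Ctss was also called higher with D.f. in wild type of the knockout set (1.34 ± 0.14, adjusted p = 0.0294). Without D.f. replicate 3, 2 genes of the list were called higher with D.f., and without D.f. plus RNase III replicate 5 none was called lower.

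Of 4 genes of class II turnover and T cell co-receptors, 2 were called higher with D.f. and 3 lower with RNase III against D.f. Lag3, a class II receptor of T cells, changed by 2.72 ± 0.25 (adjusted p = 0.0012 by edgeR) and March1, the ubiquitin ligase that removes class II molecules from the surface, by 0.69 ± 0.16 (adjusted p = 0.0332). Cd4 stood at 0.62 ± 0.20 (adjusted p = 0.0953) and March8, another ubiquitin ligase, at -0.05 ± 0.13 (adjusted p = 0.868). With RNase III against D.f. Lag3 and March1 changed by -1.77 ± 0.24 and -0.89 ± 0.16 (adjusted p = 0.0064 and 0.0176), and the co-receptor Cd4 by -0.87 ± 0.20 (adjusted p = 0.0445). Of 8 costimulatory genes tested 6 were called higher with D.f. and 4 lower with RNase III against D.f., beside 6.51% and 4.85% of all genes. Cd274, the checkpoint ligand PD-L1, changed by 3.30 ± 0.19 and -3.17 ± 0.19 (adjusted p = 0.00029 and 0.00049), and the B7 gene Cd86 by 1.74 ± 0.23 and -1.48 ± 0.23 (adjusted p = 0.0042 and 0.0104). Without D.f. replicate 3, 2 of the 8 were called higher with D.f. and neither Lag3, March1 nor Cd4 was called lower with RNase III, and without D.f. replicate 4, 1 of the 8 was called lower with RNase III.

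Markers of cells that carry class II molecules differed between the groups for some cell types and not for others. The 7 markers of mature dendritic cells summed to 493 and 481 CPM with D.f., against 317 and 285 CPM with PBS, and the 8 monocyte markers to 612 and 693 CPM, against 149 and 153 CPM. RNase III with D.f. gave sums of 379.8 and 395 CPM and 169 and 157 CPM. The monocyte sum, like Ciita, was thus near the PBS level with RNase III, while the mature dendritic cell sum lay between the D.f. and the PBS values. In knockout D.f. replicates 5 and 6 the mature dendritic cell sum was 254 and 427 CPM and the monocyte sum 191 and 198 CPM, against 440 and 382 CPM and 381 and 319 CPM in wild-type D.f. libraries. The 10 alveolar macrophage markers summed to 580 and 518 CPM with D.f. and RNase III, 607 and 374 CPM with D.f. and 836 and 902 CPM with PBS. They were thus lower in both treated groups of the RNase III set. In the knockout set they were higher with D.f. in both genotypes. The sums there were 598 and 546 CPM with D.f., against 482 CPM with PBS, in double knockout mice. In wild type they were 487 and 471 CPM, against 420 CPM. The 7 plasmacytoid dendritic cell markers summed to 347 and 375 CPM with D.f. and RNase III. They summed to 345 and 374 CPM with D.f. and 373 and 361 CPM with PBS, and these groups overlapped. With RNase III against D.f. the median log2 fold change of the 7 was -1.47, and edgeR called 0 of them. Of the 7, 4 had an unadjusted p under 0.05 by edgeR, beside 3816 of the 17165 genes tested. The part of these cells in the class II values was not tested.

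Among the patterns most like the mean of H2-Aa, H2-Ab1, H2-Eb1 and Cd74 were those of Bst1, a surface enzyme of myeloid and stromal cells (Pearson r = 0.914 over 12 libraries), the Toll-like receptor adaptor Ticam2 (0.911), the acid phosphatase Acp5 (0.900), the proton channel Hvcn1 (0.890), the macrophage lysosomal protein Cd68 (0.889), and Opa3 and Mrpl45 (0.884 each). Within the members the same measure gave 0.862 for H2-DMa, 0.836 for H2-DMb1, 0.592 for Ciita, 0.057 for H2-Oa and -0.30 for H2-Ob. The DO genes thus did not follow the mean of these chains and Cd74, and correlated with each other at 0.668. The points share libraries and depth.

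Per length of exon, in CPM per kb, the order of the members in PBS libraries of the RNase III set was Cd74 at 465, H2-Eb1 at 133, H2-Ab1 at 132, H2-Aa at 105, H2-DMb1 at 19.8, H2-DMa at 15.3, Ciita at 8.06, H2-Ob at 4.95 and H2-Oa at 2.04. H2-Eb1 and H2-Ab1 did not differ beyond the spread of their libraries, and each other neighbour did. With D.f. the order of Cd74 at 612 CPM per kb, H2-Ab1 at 147, H2-Eb1 at 133 and H2-Aa at 119 held 3 chains whose neighbouring ranges overlapped. Ciita reached 16.8 CPM per kb with D.f., where its range overlapped that of H2-DMa at 19.0. With D.f. and RNase III Ciita was at 8.04 and H2-DMa at 14.6 CPM per kb, apart again.

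Set against each other per kb, the DM chains stood above the DO chains in every library. The ratio of summed DM to summed DO in the RNase III set was 8.45 and 8.03 with D.f. and RNase III, 6.95 and 6.78 with D.f. and 4.11 and 6.14 with PBS. For the knockout set it was 8.12 and 9.28 with D.f. in the knockout, against 4.15 with PBS, and 9.58 and 8.5 with D.f. in wild type, against 3.88 with PBS. Every D.f. library was above every PBS library of its set. In the RNase III set the ratio of the mean I-A chain to Ciita per kb was 13.7 and 13.6 with D.f. and RNase III. It was 10.5 and 6.08 with D.f. and 13.9 and 15.5 with PBS. In wild type of the knockout set it was 13.5 and 13.7 with D.f., against 15.5 with PBS. Knockout D.f. replicates 5 and 6 lay on either side of their PBS library, at 6.42 and 19.6 against 10.2. A ratio shows unequal change and not which side changed.

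**Figure D4:**
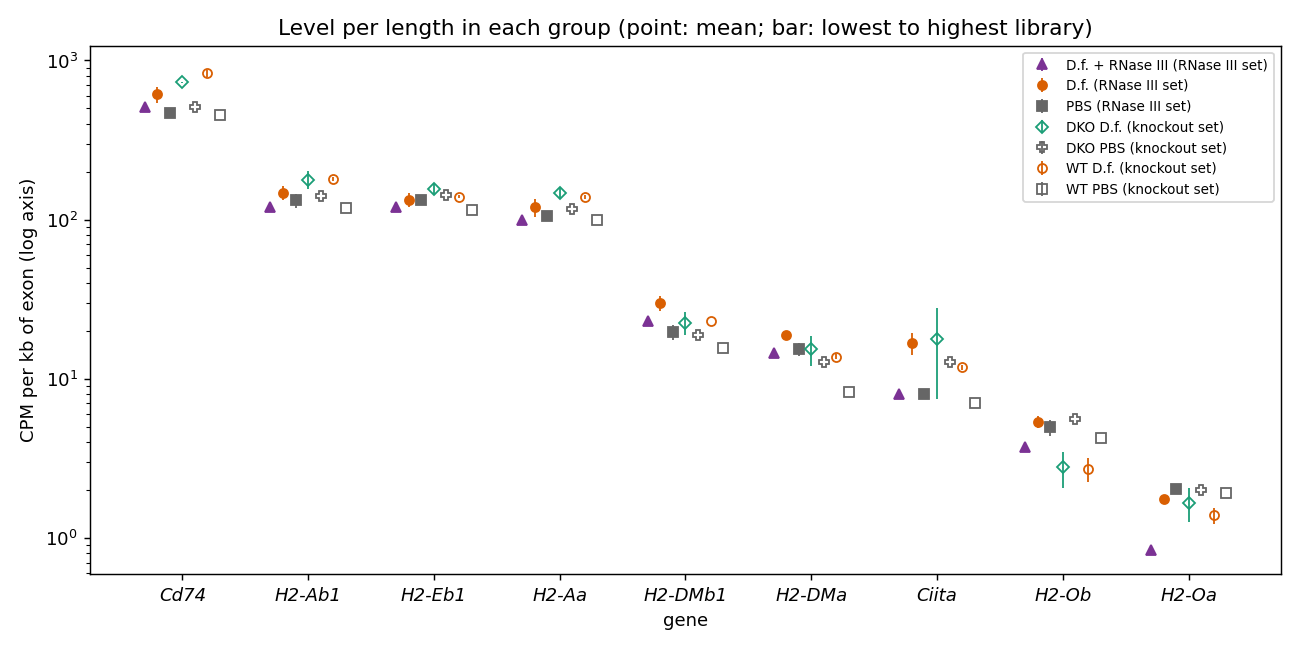
Level of each class II gene per kb of exon in each of the 7 groups, on a log axis, with the mean as a point and the lowest to highest library as a bar; the sets were scaled separately. In PBS libraries of the RNase III set Cd74 is highest at 465 CPM per kb and H2-Oa is lowest at 2.04, and the longest bar belongs to Ciita in knockout D.f. libraries.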

How the data were processed

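The deposited values are raw read counts per gene, 1 table per library, with no normalization by the authors. TRIzol RNA was sequenced as 100-base single-end reads from a TruSeq total RNA kit, per the labels' protocols. The submitters' processing notes name the build mm9 and the tools bcl2fastq, TopHat2 2.0.8b and HTSeq. The version of HTSeq, its annotation and its strand setting are not given here. The 5 closing lines of each table hold reads not assigned to a gene and were left out of library sizes and tests, so that 23.1% to 28.2% of the reads in a table were used. Groups and replicate numbers come from the sample titles.

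Counts were tested in R 4.3.3 with edgeR 4.0.16 (TMM scaling, filterByExpr per group, then glmQLFit with glmQLFTest) at a Benjamini-Hochberg adjusted p under 0.05. The 6 libraries of a set were fitted together, 1 mean for each group, with 3 residual degrees of freedom for the RNase III libraries and 2 for the knockout libraries. The spread of a lone PBS library is taken from the replicated groups. Wild-type mice were also fitted over both sets with a term for the set (4 residual degrees of freedom). SE is the log2 fold change over the root of F. Levels per kb use the union of GENCODE exons on NCBIM37. Alternatives were RLE size factors, no filter on low counts, DESeq2 1.42.0, leaving out each library, and 1 fit over 12 libraries. The analysis was tested on simulated data.

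The members, the gene lists and the tests were chosen with earlier results of these data known. All 9 members are named in every comparison, with up to 4 genes of the smallest p per list and the genes most alike in pattern. Nlrc5, Ctsf, Tlr3, Mavs and Dexi were named with their values known. Some genes that the rule names are not reported here.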

Additional observations from a re-analysis of the deposited data

How the results depend on the processing

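Of the class II calls, Ciita with D.f. in the RNase III set held under RLE size factors, no filter on low counts, DESeq2 and each of the 6 fits without a library, and was lost in 1 fit over all 12 libraries. The number of the 9 genes called with D.f. there was 1, against 2 with no filter, 2 with DESeq2 and 0 over 12 libraries. With RNase III against D.f. it was 1, against 0 over 12 libraries, and for wild type over both sets it was 3, against 1 in either set alone. Over all genes, D.f. plus RNase III against PBS gave 1 call, against 10 with no filter and 48 with DESeq2. RNase III against D.f. gave 1246, against 1905 with DESeq2. Wild-type D.f. in the knockout set gave 232, against 391 with no filter, 648 with DESeq2, 391 over 12 libraries and 2277 in the fit of both sets. Knockout D.f. gave 0, against 36 with DESeq2, and knockout against wild type 387, against 736. The interaction gave 1, against 16, 213 and 7 with no filter, DESeq2 and 12 libraries.

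Leaving out 1 library at a time gave 1 to 2 class II calls (584 to 3071 over all genes) for D.f. over PBS with the RNase III set, 0 to 0 (0 to 188) for D.f. plus RNase III against PBS and 0 to 3 (146 to 2874) for RNase III against D.f. It gave 0 to 8 (0 to 3150) for wild-type D.f. and 0 to 3 (0 to 2092) for knockout D.f. against PBS, 0 to 2 (7 to 3048) between the genotypes, 0 to 2 (0 to 1666) for the interaction and 1 to 4 (1080 to 2428) for wild type over both sets. Without knockout D.f. replicate 5, Ciita reversed to -0.77 with D.f. in the knockout and to -0.67 against wild type, and its interaction was -1.52. Without replicate 6 its values were 1.14 and 1.24. The cause was not tested. A fit without the lone PBS library of a genotype gives no value for its response or the interaction. The depth of 20 to 61 reads per library limits H2-Oa.

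No paired analysis was possible because the groups compared within a set share no replicate number.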

Other observations

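Among PBS libraries of the knockout set, 1 per genotype and with no replicate check, all 9 class II genes had higher CPM in the double knockout than in wild type. The median log2 ratio was 0.26. The share of all genes higher in that library was not counted, so the 9 genes have no background beside them. H2-Oa had 42 reads in the knockout library and 44 in the wild-type library, and was higher only after scaling. Ciita had 78.7 CPM in the knockout PBS library, against 43.8 CPM in the wild-type PBS library, a ratio of 1.80, and H2-DMa had 21.0 CPM, against 13.5 CPM, a ratio of 1.55. H2-Ob had 18.03 CPM, against 13.7 CPM, while the sum of B cell markers was 138 CPM, against 78.5 CPM. Nlrc5 had 91.3 CPM, against 31.6 CPM, and Gbp4 had 124 CPM, against 45.6 CPM. The PBS libraries enter the contrast of D.f. with PBS of their own genotype, and the ratio between them enters the difference between the genotypes' responses.

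H2-Eb2 had 3.57 and 3.22 CPM with D.f., against 2.65 and 1.45 CPM with PBS, in the RNase III set (log2 fold change 0.74 ± 0.36, adjusted p = 0.256 by edgeR). H2-DMb2 had 9.79 and 6.79 CPM with D.f., against 10.9 and 8.73 CPM with PBS, in that set. These groups overlapped, unlike those of H2-DMb1. In wild type of the knockout set H2-DMb2 had 3.65 and 3.30 CPM with D.f., against 2.73 CPM with PBS, higher with D.f. like H2-DMb1. In double knockout mice it had 3.46 and 3.45 CPM with D.f., against 3.34 CPM with PBS. Dexi lies beside Ciita on the opposite strand (chr16:10530300-10543147). In the RNase III set it had 8.996 and 11.2 CPM with D.f., against 9.22 and 9.995 CPM with PBS. In knockout D.f. replicates 5 and 6, where Ciita differed most, Dexi had 12.7 CPM in both.

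Marker lists of dendritic cells were summed without a test between them. The 7 markers of type 1 conventional dendritic cells summed to 156 and 154 CPM with D.f., against 303 and 227 CPM with PBS, in the RNase III set, and 3 were called lower, where 4.5% of all genes were. The 6 markers of type 2 conventional dendritic cells summed to 234 and 222 CPM with D.f., against 185 and 209 CPM with PBS, and 1 was called higher and 2 lower. The 5 markers shared by both types summed to 308 and 274 CPM with D.f., against 264 and 236 CPM with PBS. The 8 interstitial macrophage markers summed to 514 and 994 CPM in knockout D.f. replicates 5 and 6, against 415 and 335 CPM in wild-type D.f. libraries.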
